A study of Caenorhabditis elegans with 8 samples.

Results

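The genes described here are 8 protein-coding genes of the nematode Caenorhabditis elegans: C32H11.4, its neighbours C32H11.1 and C32H11.3, and the dod genes dod-24, dod-17, dod-19, dod-21 and dod-22. They were taken by their names from a deposited table of 46739 genes, and all 8 were found there. C32H11.4 was selected on its counts, as a gene lower in the libraries labelled as RNA interference (RNAi) against isoform C of vab-3, and the others were chosen by name as related intestinal genes. Its values in the C-labelled and control libraries are therefore a description. No test is given for C32H11.4 in any comparison, nor for any of the 8 genes in the comparison of C-labelled with control libraries. Tests of the other 7 between A-labelled and C-labelled libraries use the same C-labelled libraries, so they are not independent of the choice of genes. Each of them passed the filter on low counts, 8 of the 14772 genes that did.

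The worms were hermaphrodites of the wild-type strain N2, treated by RNAi from young adulthood and collected whole at 5 days of adulthood. 3 libraries carry the label RNAi against vab-3 isoform A, 3 carry the label isoform C, and 2 controls came from worms on the empty vector L4440. All groups thus share the strain and the age, and the controls received a vector too. The gene vab-3 encodes the Pax6 transcription factor of C. elegans. The labels do not say whether replicates were separate cultures, so p-values measure the spread between these libraries, which may be technical.

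Libraries held between 30289733 and 43364047 counts. Levels in CPM are counts per 1e6 counts of the library, with library sizes scaled between libraries. The targeted gene vab-3 had 4.43, 5.52 and 4.38 CPM in the A-labelled libraries and 4.08, 2.04 and 4.84 CPM in the C-labelled libraries, against 2.23 and 2.12 CPM in the controls. It was thus higher than both controls in all labelled libraries except C-labelled library 2, which lay below both. These counts are of the whole gene and do not separate isoforms A and C, so they do not show whether either isoform was reduced. Groups are therefore called A-labelled and C-labelled, and each direction is one between labelled libraries. A-labelled libraries 2 and 3 stood apart from the rest, at 64.6 and 54.7 on the first principal component, with A-labelled library 1 at -10.5 and the others between -40.0 and 1.06. For the 8 genes, values in the A-labelled libraries are given below by library, and differences also with A-labelled library 1 alone where libraries 2 and 3 decide them. Medians and counts over gene lists take all 3 A-labelled libraries together. Markers of other tissues moved with these libraries. The summed level of 6 epidermis markers was 105.8 to 289.7 CPM in the A-labelled, 65.1 to 107 CPM in the C-labelled and 63.5 to 76.5 CPM in the control libraries. For 6 pharynx markers it was 40.4 to 141.97 CPM, 26.0 to 38.8 CPM and 14.6 to 33.1 CPM in the same order of groups. All 6 epidermis and all 5 tested pharynx markers had a higher A-labelled than control mean, none of these markers was at 0 in any library, and their part in the results below was not tested.

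Proteins with a CUB-like domain form a family of mostly secreted proteins that is expanded in C. elegans, and many of its genes are known to change during bacterial infection. The name dod stands for downstream of DAF-16, the FOXO transcription factor that insulin signalling through the receptor DAF-2 holds out of the nucleus. Several dod genes, among them dod-17, dod-19, dod-22 and dod-24, are known from the set whose RNA is lower when DAF-16 is active, as in daf-2 mutants. Both dod-22 and dod-24 are also known to respond to Pseudomonas aeruginosa and to depend on the p38 kinase PMK-1, and C32H11.1 carries the name irg-6, for infection response gene, in the reference annotation. The annotation used here describes no CUB domain for the 8 genes, and whole-worm RNA does not show the tissue a transcript comes from, so neither label could be checked. In whole worms, fewer cells of a type cannot be told apart from less RNA per cell.

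In build WBcel235, 7 of the genes lie on chromosome IV and dod-19 lies on chromosome V. C32H11.4 (WBGene00007867) lies on the plus strand at IV:12921264-12923296 and has 8 exons. C32H11.3 (WBGene00007866) lies at IV:12918556-12920393 on the same strand, also with 8 exons, and ends 870 bases before C32H11.4. C32H11.1 (WBGene00007864) lies on the minus strand at IV:12912722-12914969, and its longest transcript has 9 exons. The pair dod-21 (WBGene00007873, plus strand, IV:12936738-12937988) and dod-24 (WBGene00007875, minus strand, IV:12940106-12941354) have 3 exons each and lie 2117 bases apart. Farther along, dod-22 (WBGene00010125) lies at IV:12965374-12967392 and dod-17 (WBGene00010745) at IV:12976303-12978343, both on the plus strand with 8 exons. The exception, dod-19 (WBGene00022644), lies on the minus strand at V:411782-414759 and has 6 exons in the longest of 3 transcripts. Shared exon number thus groups C32H11.4, C32H11.3, dod-17 and dod-22, and sets dod-21 with dod-24.

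Levels between genes were compared per length, as RPKM, which is reads per kilobase of gene scaled to the library's total. In mean RPKM over the 8 libraries dod-19 came first at 417, with a range of 267 to 538, and its range lay wholly above that of dod-24 at 32.3 (15.3 to 56.9). Next came dod-21 at 12.2 (3.24 to 32.4) and dod-17 at 10.999 (7.10 to 15.8), whose ranges overlapped each other and, for both, the lower end of dod-24. C32H11.4 at 3.67 (1.05 to 6.85), C32H11.1 at 2.91 (1.22 to 5.67) and dod-22 at 2.68 (1.38 to 4.43) overlapped over most of their ranges, so their order is not set. C32H11.3 came last at 0.317 (0.229 to 0.400), below every library of the other 7. The gene with the most RNA, dod-19, made up 74.9 to 89.3% of the summed CPM of the 8 genes in the A-labelled libraries, 91.5 to 93.6% in the C-labelled libraries and 85.3 to 88.5% in the controls.

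**Figure D1:**
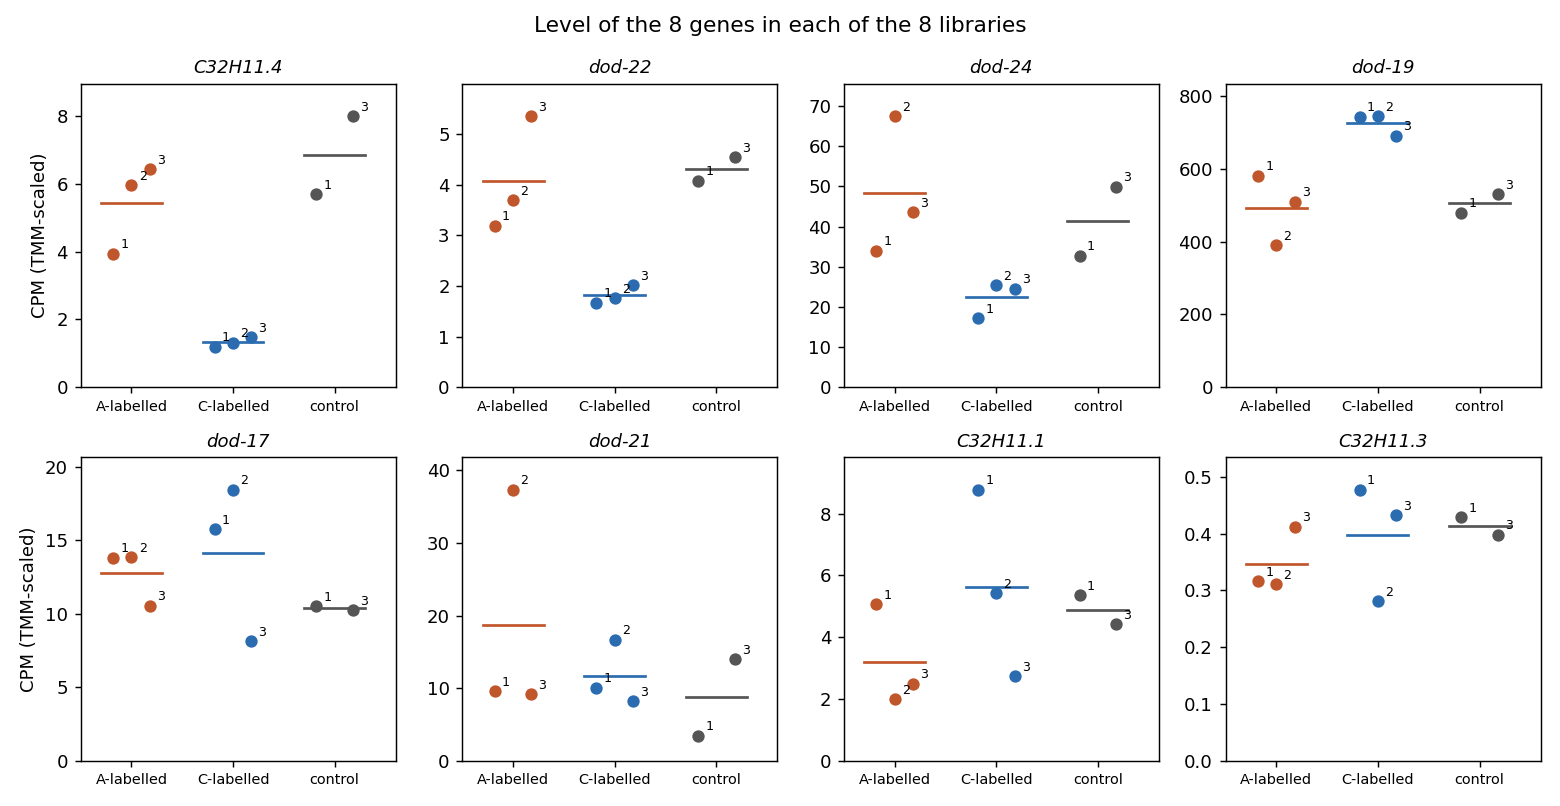
Level of each of the 8 genes in CPM (linear axis from 0) in each library: A-labelled on the left, C-labelled in the middle, control on the right, with the replicate number beside each point and a bar at the group mean. C-labelled libraries sit below both other groups for C32H11.4, dod-22 and dod-24 and above both for dod-19, while the other 4 genes show no such order.

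C32H11.4 was the gene with the widest gap between groups. It had 3.94, 5.97 and 6.44 CPM in the A-labelled libraries and 1.19, 1.31 and 1.47 CPM in the C-labelled libraries, against 5.69 and 8.00 CPM in the controls. Every C-labelled library lay below every other library, and the A-labelled and control libraries overlapped. In raw counts these were 137, 173 and 250 in the A-labelled libraries and 40, 56 and 51 in the C-labelled libraries, against 212 and 241 in the controls. The means were 5.45 ± 1.33 CPM (SD, n = 3) in the A-labelled and 1.32 ± 0.139 CPM (SD, n = 3) in the C-labelled libraries, against 6.85 ± 1.63 CPM (SD, n = 2) in the controls. The C-labelled mean was 0.194 of the control mean. The log2 difference was -2.36 ± 0.25 (SE) between C-labelled and control libraries, -0.33 ± 0.24 between A-labelled and control libraries, and 2.04 ± 0.23 between A-labelled and C-labelled libraries. With A-labelled library 1 alone the last was 1.58 and the A-labelled difference from control was -0.78. Leaving out any single library kept the C-labelled difference from control between -2.59 and -2.10.

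The gene dod-22 showed the same order of groups on a smaller scale. It had 3.19, 3.69 and 5.35 CPM in the A-labelled libraries and 1.67, 1.76 and 2.02 CPM in the C-labelled libraries, against 4.08 and 4.55 CPM in the controls. All C-labelled libraries lay below the rest, and the A-labelled libraries spanned the controls. The log2 difference was -1.25 ± 0.23 between C-labelled and control libraries, where it was not tested, and -0.08 ± 0.23 between A-labelled and control libraries (edgeR, adjusted p = 0.863). Between A-labelled and C-labelled libraries it was 1.17 ± 0.22, higher in all 3 A-labelled libraries, and did not pass over all genes (edgeR, adjusted p = 0.137). With the replicate number as a block the same difference was 1.15 ± 0.17 (SE) and passed (edgeR, adjusted p = 0.00646), in a fit that called 7.67% of all genes higher and 3.85% lower. DESeq2 gave 1.16 with an adjusted p of 0.00148, where 3.78% of genes were called higher. With A-labelled library 1 alone the difference was 0.82, and that from control was -0.42.

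The gene dod-24 had 34.01, 67.5 and 43.6 CPM in the A-labelled libraries and 17.1, 25.4 and 24.5 CPM in the C-labelled libraries, against 32.7 and 49.97 CPM in the controls. Here too the C-labelled libraries were the lowest 3 of the 8, and A-labelled library 2 was the highest. The means were 48.4 ± 17.2 CPM (SD, n = 3) in the A-labelled and 22.3 ± 4.53 CPM (SD, n = 3) in the C-labelled libraries, against 41.4 ± 12.2 CPM (SD, n = 2) in the controls. The log2 difference was -0.89 ± 0.33 between C-labelled and control libraries, not tested, and 0.23 ± 0.33 between A-labelled and control libraries (edgeR, adjusted p = 0.709). Without A-labelled library 2 the A-labelled difference from control was -0.08, with A-labelled library 1 alone it was -0.27, and without control 1 it was -0.05, so its direction rests on single libraries. Between A-labelled and C-labelled libraries the log2 difference was 1.11 ± 0.30 and did not pass (edgeR, adjusted p = 0.164). It passed with the replicate block, at 1.08 ± 0.11 (edgeR, adjusted p = 0.00384), and with DESeq2, at 1.09 (adjusted p = 0.000709). With A-labelled library 1 alone it was 0.61.

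Of the 8 genes, dod-19 alone had every C-labelled library above every library of both other groups. It had 581, 391 and 509 CPM in the A-labelled libraries and 743, 745 and 690 CPM in the C-labelled libraries, against 479 and 530 CPM in the controls. The means were 493.5 ± 96.1 CPM (SD, n = 3) in the A-labelled and 725.9 ± 30.8 CPM (SD, n = 3) in the C-labelled libraries, against 504.6 ± 36.1 CPM (SD, n = 2) in the controls. The log2 difference was 0.52 ± 0.15 between C-labelled and control libraries, not tested, and -0.03 ± 0.15 between A-labelled and control libraries (edgeR, adjusted p = 0.915). The sign of that small A-labelled value changed with A-labelled library 2 left out, to 0.12, and with library 1 alone, to 0.22. Between A-labelled and C-labelled libraries it was -0.56 ± 0.13, lower in all 3 A-labelled libraries, and did not pass (edgeR, adjusted p = 0.137; with the replicate block, edgeR adjusted p = 0.0756). DESeq2 gave -0.57 with an adjusted p of 0.00134, where 0.711% of genes were called lower. Without A-labelled library 1 the edgeR value was -0.69 and passed (adjusted p = 0.0129). That fit kept only libraries 2 and 3 of the A-labelled group, which stood apart, and called 749 of 14772 genes, against 6 with all libraries. With A-labelled library 1 alone the value was -0.32.

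In dod-21 the spread within groups exceeded the gaps between them. It had 9.55, 37.3 and 9.14 CPM in the A-labelled libraries and 10.05, 16.7 and 8.24 CPM in the C-labelled libraries, against 3.49 and 14.01 CPM in the controls. Its lowest and highest library differed 10.7-fold, the widest range of the 8 genes, and all groups overlapped. The log2 difference was 1.10 ± 0.86 between A-labelled and control libraries (edgeR, adjusted p = 0.459) and 0.67 ± 0.74 between A-labelled and C-labelled libraries (edgeR, adjusted p = 0.637). Without A-labelled library 2 the second value was -0.32, and with A-labelled library 1 alone the first was 0.15. Between C-labelled and control libraries dod-21 had 0.43 ± 0.85, not tested, which was -0.26 without control 1 and 1.74 without control 3. The gene next to it on the other strand, C32H11.9 (cld-1 in the reference annotation), followed it closely. C32H11.9 had 321, 1018 and 329 counts in the A-labelled libraries and 321, 658 and 327 in the C-labelled libraries, against 134 and 384 in the controls, and dod-21 had 332, 1081 and 355, then 337, 712 and 286, against 130 and 422. The ratio of dod-21 to C32H11.9 counts stayed between 0.875 and 1.10 in the 8 libraries. How the authors counted reads that match both genes is not given in the sources used here, so a split of shared reads cannot be told apart from equal levels, and the value of either gene alone is uncertain.

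In the remaining 3 genes no tested difference passed. For dod-17, levels were 13.8, 13.9 and 10.6 CPM in the A-labelled libraries and 15.8, 18.4 and 8.15 CPM in the C-labelled libraries, against 10.5 and 10.3 CPM in the controls. All A-labelled libraries lay above both controls, the closest by a narrow margin, while the C-labelled libraries held both the highest and the lowest value. The log2 difference of dod-17 was 0.29 ± 0.31 between A-labelled and control libraries (edgeR, adjusted p = 0.588), 0.44 ± 0.31 between C-labelled and control libraries, not tested, and -0.15 ± 0.27 between A-labelled and C-labelled libraries (edgeR, adjusted p = 0.787).

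C32H11.1 had 5.06, 2.00 and 2.50 CPM in the A-labelled libraries and 8.76, 5.41 and 2.74 CPM in the C-labelled libraries, against 5.37 and 4.42 CPM in the controls. A-labelled libraries 2 and 3 and C-labelled library 3 were low, and the groups overlapped. Its log2 difference was -0.62 ± 0.53 between A-labelled and control libraries (edgeR, adjusted p = 0.493) and -0.82 ± 0.48 between A-labelled and C-labelled libraries (edgeR, adjusted p = 0.375), and with A-labelled library 1 alone these were 0.06 and -0.15. In the C-labelled libraries it stood 0.20 ± 0.53 above control on the log2 scale, not tested, and at -0.26 without C-labelled library 1. C32H11.3 had 11, 9 and 16 counts in the A-labelled libraries and 16, 12 and 15 in the C-labelled libraries, against 16 and 12 in the controls, and the groups overlapped. Its log2 difference was -0.25 ± 0.37 between A-labelled and control libraries (edgeR, adjusted p = 0.709), -0.07 ± 0.37 between C-labelled and control libraries, not tested, and -0.17 ± 0.33 between A-labelled and C-labelled libraries (edgeR, adjusted p = 0.823). At this depth a small difference in C32H11.3 was not detectable. Its SE of 0.37 between C-labelled and control libraries was small beside the log2 difference of -2.36 of C32H11.4 there. C32H11.4, only 870 bases away, stood at a mean of 3.67 RPKM, against 0.317 RPKM for C32H11.3.

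**Figure D2:**
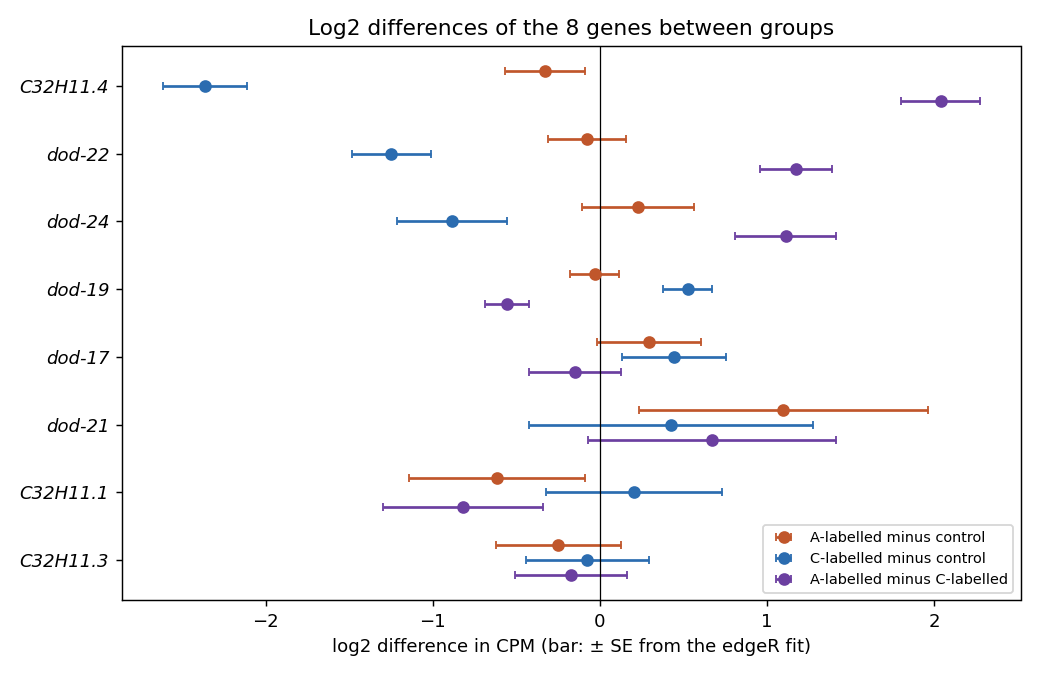
Log2 differences in CPM of the 8 genes in 3 comparisons, with bars of ± 1 SE from the edgeR fit over all 8 libraries and a line at 0. C32H11.4, dod-22 and dod-24 stand to the left of 0 for C-labelled minus control and to the right for A-labelled minus C-labelled, dod-19 does the reverse, and the bars of dod-21 are the widest.

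Counted together, the 8 genes moved in both directions. In the A-labelled libraries 3 were higher and 5 lower than in the controls, with a median log2 difference of -0.05 beside 0.03 over all genes tested. None of the 7 tested passed, where edgeR called 0% of all genes, and 0 of the 7 tested had an unadjusted p under 0.05, where 13.7% of all genes were higher and 12.3% lower at that p. DESeq2 called 6.19% of genes higher and 3.02% lower in this comparison, and the replicate block 2.56% and 1.14%, and neither called any of the 7 genes tested, though DESeq2 gave C32H11.3 no adjusted p. Only dod-17 did not overlap with the controls, and it was higher, beside 21.5% of all genes that were higher without overlap and 22.2% that were lower.

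In the C-labelled libraries 4 of the 8 were higher and 4 lower than in the controls, with a median of 0.06 beside -0.01 over all genes. There 3 genes were lower without overlap (C32H11.4, dod-22 and dod-24) and 1 was higher (dod-19), beside 15.5% and 12.7% of all genes, and nothing is read from these counts because the genes were chosen with this comparison known. edgeR called 0.0948% of all genes in it, 0.0609% as higher and 0.0338% as lower. At an unadjusted p under 0.05, 4.32% of all genes were higher and 3.02% lower, the replicate block called 0.366% higher and 0.325% lower, and DESeq2 called 1.06% higher and 0.275% lower.

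Set against the C-labelled libraries, the A-labelled libraries were higher without overlap in 3 of the 8 genes and lower in 1, beside 12.7% and 11.2% of all genes. These were again C32H11.4, dod-22 and dod-24, and dod-19. edgeR called 0.0406% of all genes here, 0.0338% as higher and 0.00677% as lower. Of the 7 genes tested, dod-22 and dod-24 were higher and dod-19 lower at an unadjusted p under 0.05, beside 11.6% of all genes higher and 7.59% lower. This comparison shares its C-labelled libraries with the one that chose C32H11.4 and that was known when the other genes were chosen. Its results for dod-22, dod-24 and dod-19, in any fit, are therefore not separate support. The 2 comparisons with control share both controls.

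The stretch of chromosome IV from C32H11.1 to dod-17 spans 65.6 kb and holds 30 annotated genes, 21 of them protein coding. Of these, 17 were tested, the 7 described above and 10 others, a set taken after values had been seen. Between C-labelled and control libraries 8 of the 10 were lower and 2 higher, with a median log2 difference of -0.60 beside -0.01 over all genes, and 5 lay below both controls in every C-labelled library, beside 15.5% of all genes. For 1 of the 5, C32H11.11, this rests on 2, 2 and 1 counts in the C-labelled libraries, against 4 and 2 in the controls. C32H11.5, C32H11.8, C32H11.11, F55G11.3 and F55G11.6 had a mean of under 1 CPM over the libraries, and all of them were lower. The log2 differences of the more abundant genes among the 10 ran from -0.56 (F55G11.2) to 0.50 (C32H11.9), so the median rests largely on weakly expressed genes. None of the 10 passed over all genes (edgeR). The abundant F55G11.4 measured 226.0 ± 117 CPM (SD, n = 3) in the A-labelled and 256 ± 63.0 CPM (SD, n = 3) in the C-labelled libraries, against 376 ± 17.1 CPM (SD, n = 2) in the controls. F55G11.2, which lies next to the end of dod-22 on the other strand, had a log2 difference of -0.56 ± 0.25 between C-labelled and control libraries. F55G11.8, on the other side of dod-22, had 0.17 ± 0.16. The values of both direct neighbours of dod-22 were thus closer to 0 than its own -1.25.

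The median of the 10 other genes in the A-labelled libraries relative to control was 0.16, with 6 higher and 4 lower. The widest values belonged to genes with a mean of under 1 CPM between the C32H11 members. C32H11.5 had 6, 57 and 30 counts in the A-labelled libraries and 3, 5 and 1 in the C-labelled libraries, against 7 and 2 in the controls. C32H11.8 had 4, 12 and 22 counts in the A-labelled libraries and 0, 2 and 0 in the C-labelled libraries, against 1 and 1 in the controls. Both were highest in A-labelled libraries 2 and 3, the libraries in which epidermis and pharynx markers were highest. In those libraries C32H11.4 lay between the controls and C32H11.1 below them. The library kit does not mark the strand, so reads of overlapping genes on opposite strands cannot be told apart.

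**Figure D3:**
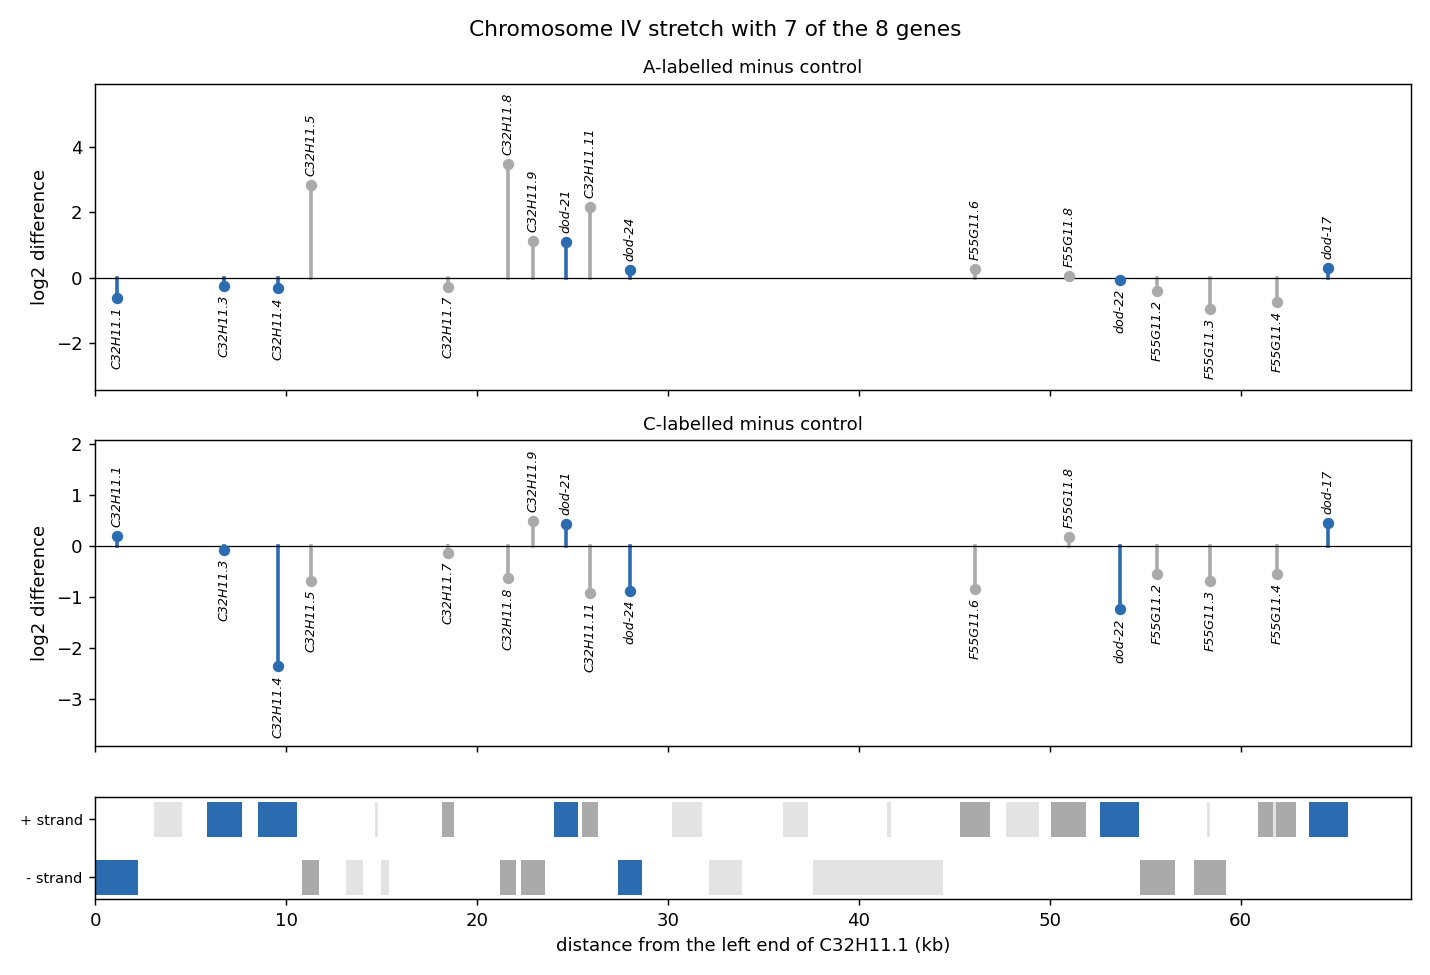
Log2 differences of the 17 tested genes on the chromosome IV stretch, placed by distance in kb from the left end of C32H11.1, for A-labelled minus control (top) and C-labelled minus control (middle), with all annotated genes by strand at the bottom. Blue marks the 7 members, dark grey other tested genes and light grey genes that were not tested, and C32H11.4 at -2.36 is the lowest value of the middle panel.

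Profiles over the 8 libraries were compared by the root-mean-square distance of log2 CPM after each gene was centred on its own mean, among genes with a mean of at least 1 CPM. These distances are descriptions over libraries that all genes share. That floor was not applied among the 8 genes themselves, and C32H11.3 had a mean of only 0.382 CPM. The smallest distances among the 8 were 0.35 for C32H11.3 with dod-19 and 0.37 for dod-24 with dod-22. C32H11.3 and dod-19 varied little, with SDs of 0.24 and 0.33 around their own means. Their small distance therefore does not show a shared profile. C32H11.4 lay 0.49 from dod-22 and 0.61 from dod-24, and farthest of all from C32H11.1, at 1.46. Over 11515 genes the profile closest to C32H11.4 was that of acox-2 (acox-1.2 in the reference), an acyl-CoA oxidase gene, at 0.43. Next were pud-4, named for a protein that is raised in daf-2 mutants, at 0.48, dod-22 itself as the third, the acyltransferase gene oac-20 at 0.50 and the insulin-like peptide gene ins-19 at 0.55. The profile of C32H11.4 itself had an SD of 1.13 around its mean. The gene acox-2 had 10.96, 19.98 and 15.96 CPM in the A-labelled libraries and 4.02, 4.31 and 5.44 CPM in the C-labelled libraries, against 8.69 and 13.8 CPM in the controls. The C-labelled libraries were lowest in acox-2, which follows from its choice by closeness to C32H11.4 over these same libraries.

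For dod-24 the closest profile was that of C17H12.8, at 0.11, with 76.1, 133 and 101 CPM in the A-labelled libraries and 43.8, 57.2 and 55.6 CPM in the C-labelled libraries, against 82.0 and 107 CPM in the controls. It was followed by E04F6.15 at 0.16 and Y57G11A.4 at 0.22. For dod-22 the closest were F59C6.16 at 0.22, dod-6 at 0.23 and the transthyretin-related gene ttr-44 at 0.25. For dod-19 they were the C-type lectin gene clec-160 at 0.10, K08H2.2 at 0.11 and pqn-60 at 0.12. For dod-21 C32H11.9 came first at 0.10, well ahead of the glutathione S-transferase gene gst-38 and the C-type lectin gene clec-265, both at 0.36.

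**Figure D4:**
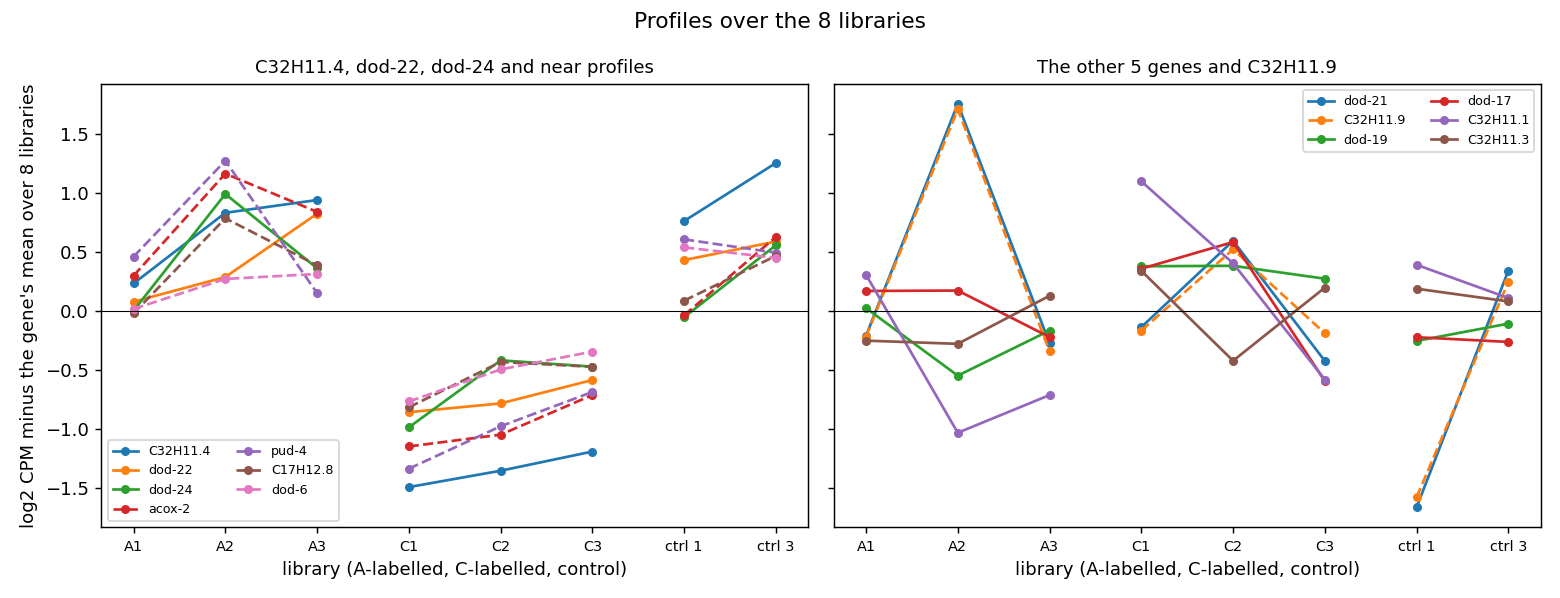
Log2 CPM of each gene minus its own mean, in the A-labelled (A1 to A3), C-labelled (C1 to C3) and control (ctrl 1 and 3) libraries, with solid lines for the 8 genes and dashed lines for others. On the left C32H11.4, dod-22, dod-24, acox-2, pud-4, C17H12.8 and dod-6 lie below 0 in all 3 C-labelled libraries. For acox-2, pud-4, C17H12.8 and dod-6, drawn from the nearest profiles, this follows from their choice. On the right dod-21 and C32H11.9 nearly coincide.

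The other dod genes in the table were dod-3, dod-6, dod-18, dod-20 and dod-23, and all 5 were tested. They are pooled by name alone, and dod-3 is also among the genes known to be raised by DAF-16 that are described below. In the A-labelled libraries 0 were higher and 5 lower than in the controls, with a median log2 difference of -0.25 beside 0.03 over all genes, and 0 passed. In the C-labelled libraries 2 were higher and 3 lower, with a median of -0.39, and 0 passed. The nearest to the threshold was dod-6, with 15.9, 18.98 and 19.5 CPM in the A-labelled libraries and 9.24, 11.2 and 12.4 CPM in the C-labelled libraries, against 22.8 and 21.5 CPM in the controls. Every C-labelled library was below every other library. Its log2 difference was -1.02 ± 0.14 between C-labelled and control libraries (edgeR, adjusted p = 0.0616) and 0.73 ± 0.13 between A-labelled and C-labelled libraries (edgeR, adjusted p = 0.137). In the first of these comparisons dod-23 had -0.39 ± 0.12 (edgeR, adjusted p = 0.472) and dod-3 had -0.62 ± 0.48 (edgeR, adjusted p = 0.823).

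A broader set was made of the genes named after the clones C32H11, F55G11, K10D11, ZK6, K08D8 and F35E12, together with the infection response genes irg-4 and irg-5 and with dct-17, since the annotation used here holds no domain descriptions. It counted 48 genes without the 8, of which 32 were tested and 0 passed in any of the 3 comparisons. The 32 include the 10 other tested genes of the chromosome IV stretch described above. Relative to control, 19 were higher and 13 lower in the A-labelled libraries, with a median of 0.09, and between C-labelled and control libraries 14 were higher and 18 lower, with a median of -0.05. Relative to the C-labelled libraries, 15 were higher and 17 lower, with a median of -0.06 beside 0.02 over all genes. K08D8.5 measured 13.6 ± 3.94 CPM (SD, n = 3) in the A-labelled and 8.86 ± 1.56 CPM (SD, n = 3) in the C-labelled libraries, against 15.4 ± 0.943 CPM (SD, n = 2) in the controls, a log2 difference of -0.80 ± 0.24 for C-labelled against control (edgeR, adjusted p = 0.478). The irg-4 gene, listed as F08G5.6, had 1.02 ± 0.65 and F55G11.4 had -0.73 ± 0.44 between A-labelled and control libraries. The set as a whole thus held values on both sides of 0, as the 8 genes did.

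Immune effectors that are known from the intestine were followed as 15 genes, irg-4 and irg-5 of the set above among them, all tested, and 0 passed. Relative to control, 7 were higher and 8 lower in the A-labelled libraries, with a median of -0.03. In the C-labelled libraries 3 were higher and 12 lower, with a median of -0.16, and between A-labelled and C-labelled libraries 11 were higher and 4 lower, with a median of 0.11. The C-type lectin gene clec-67 measured 11.87 ± 6.91 CPM (SD, n = 3) in the A-labelled and 2.95 ± 0.921 CPM (SD, n = 3) in the C-labelled libraries, against 4.27 ± 1.29 CPM (SD, n = 2) in the controls. Its log2 difference was 2.00 ± 0.44 between A-labelled and C-labelled libraries (edgeR, adjusted p = 0.137). The gene spp-1, which encodes a saposin-like antimicrobial protein, had -0.61 ± 0.14 between C-labelled and control libraries (edgeR, adjusted p = 0.324), with a mean of 41.8 CPM in the C-labelled libraries and 63.7 CPM in the controls.

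Genes of pathways that are known to act above the dod genes, and of other immune signalling, showed narrow ranges at the RNA level. For 12 genes of insulin signalling, from the receptor gene daf-2 to daf-16, log2 differences in the 3 comparisons stayed between -0.20 and 0.20. Their medians were -0.07 between A-labelled and control, 0.01 between C-labelled and control and -0.10 between A-labelled and C-labelled libraries. The gene daf-16 had -0.12 ± 0.05 between A-labelled and control libraries (edgeR, adjusted p = 0.158), and daf-2 had 0.13 ± 0.06 and the kinase gene pdk-1 0.20 ± 0.08 between C-labelled and control libraries. For 10 genes of the p38 immune pathway or of other immune signalling the medians were 0.06, 0.04 and 0.01 in the same order of comparisons. Among these zip-2, a bZIP transcription factor gene of the infection response, had 0.31 ± 0.07 between A-labelled and C-labelled libraries (edgeR, adjusted p = 0.137). The adaptor gene tir-1, at the head of the p38 pathway, had 0.38 ± 0.25 between A-labelled and control libraries (edgeR, adjusted p = 0.357). No gene of either list passed.

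Of 12 genes known to be raised by DAF-16, dod-3 among them, 11 were tested and 0 passed. The A-labelled libraries had 4 of them higher and 7 lower than control, with a median of -0.16, and between C-labelled and control libraries 3 were higher and 8 lower, with a median of -0.12. Relative to the C-labelled libraries, 6 were higher and 5 lower, with a median of 0.04. The metallothionein gene mtl-1 measured 25.6 ± 12.5 CPM (SD, n = 3) in the A-labelled and 22.1 ± 10.6 CPM (SD, n = 3) in the C-labelled libraries, against 48.6 ± 2.77 CPM (SD, n = 2) in the controls. The transhydrogenase gene nnt-1 had a log2 difference of -0.80 ± 0.25 between C-labelled and control libraries (edgeR, adjusted p = 0.481).

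**Figure D5:**
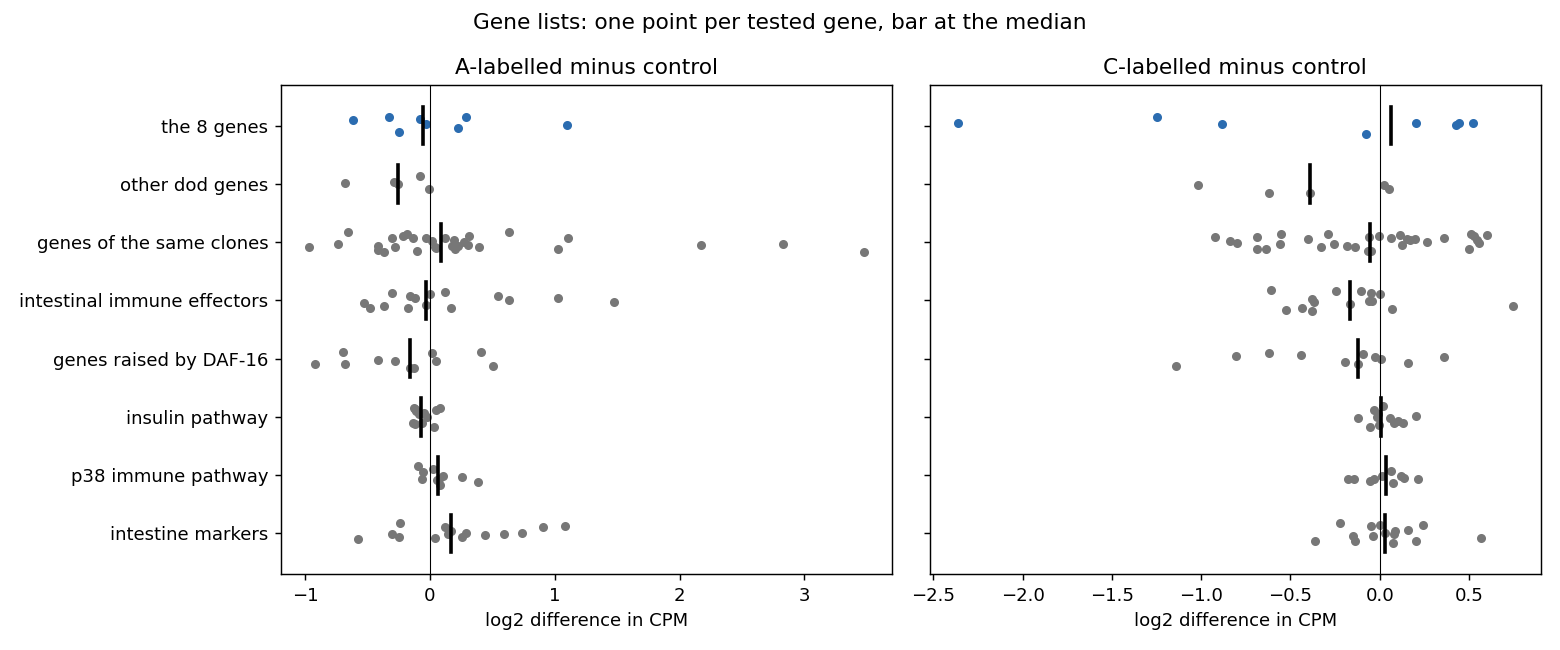
Log2 difference in CPM of every tested gene of 8 lists, for A-labelled minus control (left) and C-labelled minus control (right), with a black bar at each list's median and the 8 genes in blue. Genes of the insulin list and of the list of p38 and other immune signalling lie close to 0 in both panels. The 8 genes reach from -2.36 to 0.52 on the right.

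Levels of intestine markers were read beside these results because the 8 genes were listed as intestinal. All 15 were tested, none was at 0 in any library, and 0 passed. Their summed level was 47623 to 66611 CPM in the A-labelled, 50474 to 63434 CPM in the C-labelled and 43240 to 58648 CPM in the control libraries, and all groups overlapped. The A-labelled libraries had 11 of them higher and 4 lower than control, with a median log2 difference of 0.17, and between C-labelled and control libraries 8 were higher and 7 lower, with a median of 0.03. Relative to the C-labelled libraries, 10 were higher and 5 lower, with a median of 0.12. The intermediate filament gene ifb-2 measured 45.7 ± 17.4 CPM (SD, n = 3) in the A-labelled and 23.7 ± 5.07 CPM (SD, n = 3) in the C-labelled libraries, against 24.3 ± 4.02 CPM (SD, n = 2) in the controls. In the C-labelled libraries the summed intestine markers lay within or above the range of the controls. A large part of this sum came from the yolk gene vit-6, at a mean of 27063 CPM in the C-labelled and 22836 CPM in the control libraries. The sum thus says little about the weaker markers, and its bearing on the 8 genes was not tested.

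Markers of other tissues stood as follows, as medians between A-labelled and control, then between C-labelled and control libraries. They were 1.09 and 0.25 for 6 muscle markers, 2.53 and -0.35 for 6 epidermis markers, 1.92 and 0.40 for 5 pharynx markers, and 0.63 and 0.14 for 7 neuron markers. They were -0.17 and -0.11 for 6 germline markers and 2.20 and 1.16 for 6 sperm markers. No marker passed over all genes (edgeR). The epidermis, pharynx, muscle and sperm markers of the A-labelled group had their highest sums in libraries 2 and 3. As a mean log2 difference from the controls, the epidermis markers stood at 0.38, 2.95 and 3.00 in A-labelled libraries 1, 2 and 3, and the pharynx markers at 0.84, 2.65 and 1.94. Of the 8 genes, dod-17, dod-21 and dod-24 had their highest A-labelled value in library 2, C32H11.4, dod-22 and C32H11.3 in library 3, and C32H11.1 and dod-19 in library 1.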

How the data were processed

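Total RNA of whole worms was made into libraries with a TruSeq RNA kit that does not mark the strand, per the labels' protocols. bcl2fastq 1.8.4, TopHat2 2.1.0, featureCounts 1.5.0 and build WBcel235 are named per the submitters' processing notes. How multiply matching reads were handled, and which annotation release served, is not given in the sources used here. The authors deposited counts for 46739 genes, and the RPM values they deposited equal each count scaled to its column total. The authors also deposited RPKM values, which were used only to order levels between genes. 210 genes without a symbol, with 0.00685 to 0.0434% of counts, were kept.

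Tests were run in R 4.3.3 with edgeR 4.0.16 (quasi-likelihood F test, robust, 1 model of 3 groups over 8 libraries). The expression filter kept 14772 genes, which hold 99.9 to 100.0% of counts, and libraries were scaled by TMM (factors 0.957 to 1.02). P-values were adjusted by the Benjamini-Hochberg method over all 14772 genes, with a threshold of 0.05. CPM use scaled library sizes. SE is the size of the log2 difference over the square root of F. Alternatives were DESeq2 1.42.0, voom of limma 3.58.1, RLE scaling, no filter, no robust estimation, 2 groups only, a replicate block, A-labelled library 1 alone, and each library left out. In fits with 1 library in a group, that library is assumed to vary like the other groups.

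Library pairs within a group differed beyond sampling noise (chi-square per degree of freedom 19.3 to 51.4), so none were merged. Deviations of same-numbered A-labelled and C-labelled libraries from their group means correlated at 0.61, 0.43 and 0.22 across genes, all over 0.1, so these were taken as paired on the data alone. A-labelled library 3 correlated more with C-labelled library 2 (0.30). The labels do not explain the numbers. The controls share only numbers 1 and 3 and were not part of this reading. With the control of the same number, A-labelled libraries 1 and 3 correlated at 0.22 and 0.025, and C-labelled libraries 1 and 3 at 0.32 and 0.20. A-labelled library 2 correlated at 0.27 with control 3, which has another number. The main test used no pairing. The fit with the replicate block used the numbers of all 8 libraries, so it also set controls 1 and 3 in a block with the libraries of the same number.

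The 8 genes and all lists were chosen with earlier results of these data known. Named were the 8 genes, the 5 nearest profiles of C32H11.4 and 3 of each other member (mean of at least 1 CPM, prior count of 2), and up to 3 genes of each list with the largest absolute log2 difference and at least 1 CPM. Genes of the chromosome IV stretch and F55G11.8 were named after their values were seen. Coordinates are from the Ensembl annotation of WBcel235. Gene sequences are not used here.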

Additional observations from a re-analysis of the deposited data

How the results depend on the processing

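Counts of genes that pass depended on the tool and on single libraries. Between A-labelled and control libraries edgeR called 0 genes, DESeq2 1149, edgeR without the filter 8, and with the replicate block 546. With single libraries left out it called 0 to 1299, the last without A-labelled library 1. Between C-labelled and control libraries the count was 14, with 155 by DESeq2, 25 with only the 2 groups, 102 with the replicate block, 25 with A-labelled library 1 alone, and 1 to 16 with single libraries left out, with 1 without control 1, control 3 or C-labelled library 1, 3 without C-labelled library 2 and 6 without C-labelled library 3. Between A-labelled and C-labelled libraries it was 6, with 663 by DESeq2, 12 without the filter, 1 with only the 2 groups, 1702 with the replicate block, and 1 to 749 with single libraries left out, 749 without A-labelled library 1 and 1 without any other library. The causes were not tested.

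Signs of several log2 differences of the 8 genes changed. Between A-labelled and control libraries, with A-labelled library 1 alone, C32H11.1 was 0.063, dod-24 -0.27 and dod-19 0.22, and dod-19 was 0.022 with the replicate block. With single libraries left out, dod-24 ran from -0.079 (without A-labelled library 2) to 0.56, and was -0.048 without control 1. In the same comparison dod-19 ran from -0.17 to 0.12 (without A-labelled library 2; 0.043 without control 3) and dod-22 from -0.34 to 0.075 (without A-labelled library 1; 0.0029 without control 3). Between A-labelled and C-labelled libraries dod-17 ran from -0.42 to 0.068 (without C-labelled library 2) and dod-21 from -0.32 (without A-labelled library 2) to 0.99, and dod-21 was -0.29 with A-labelled library 1 alone. Between C-labelled and control libraries, not tested, dod-21 was -0.26 without control 1 and 1.74 without control 3, C32H11.1 was -0.26 without C-labelled library 1, and C32H11.3 was 0.15 without C-labelled library 2 and 0.066 with the replicate block. Without A-labelled library 1, dod-22 passed between A-labelled and C-labelled libraries at 1.32 (edgeR, adjusted p = 0.0107), in the fit that called 749 of 14772 genes. The replicate block changed the calls of dod-22 and dod-24 and no other call of the 7 genes tested. Depth limits C32H11.3, at 9 to 16 counts a library.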

Other observations

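The genes nearest in profile to dod-17, C32H11.1 and C32H11.3 were found by the same measure. For dod-17 they were F57B1.9 at a root-mean-square distance of 0.11, unc-93, a regulator of a muscle potassium channel, at 0.12 and F22H10.2 at 0.13. For C32H11.1 they were ZK1290.10 at 0.26, snpc-1.3, which encodes a small nuclear RNA activating complex subunit, at 0.31 and the F-box gene fbxb-102 at 0.32. ZK1290.10 had 9.12, 3.07 and 4.63 CPM in the A-labelled libraries and 17.2, 8.91 and 5.82 CPM in the C-labelled libraries, against 8.96 and 4.98 CPM in the controls. Library 1 was the highest of each group, as in C32H11.1, which follows from the choice of ZK1290.10 by closeness to it. For C32H11.3 they were R08D7.5 at 0.094, ZK632.14 at 0.11 and Y43B11AR.3 at 0.11. C32H11.3 itself had an SD of only 0.24 around its mean, so small distances to it mark profiles that also varied little.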
